A study of Rattus norvegicus with 12 samples.

Results

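Surfactant proteins and lung epithelial markers were followed as 8 of the 4736 genes with a probe set of their own in rat lung: the surfactant protein genes Sftpa1, Sftpb, Sftpc and Sftpd, the club cell gene Scgb1a1, and the alveolar type I cell genes Ager, Pdpn and Cav1. They were chosen by name, and every probe set that the platform annotation gives to 1 of these symbols was taken. This found 10 of the 8740 probe sets on the array that are not controls, since Sftpa1 and Sftpb have 2 each. The lungs came from 4 groups of male Sprague-Dawley rats with 3 arrays each, and all rats had a femoral artery and jugular vein cannulated and a laparotomy, which serves as the trauma. In T/HS rats, blood was drawn into heparin until the mean arterial pressure was 30 mmHg, held there for 90 min and then given back, and these rats had lung injury according to the study's design. T/SS rats had the same surgery with no blood drawn over a sham period and had no lung injury. T/HS-LDL and T/SS-LDL rats were treated in the same ways after the mesenteric lymph vessel had been tied off and cut through a midline opening, and the study's design records no lung injury in either of these groups. Lungs were removed 3 h after the shock or sham period, which is 4.5 h after its start, and RNA was taken from the tissue with all its cell types.

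Pulmonary surfactant is a film of lipid and protein, made by alveolar type II cells, that lowers surface tension in the alveoli. Surfactant proteins B and C are small hydrophobic proteins that spread the lipid film, and surfactant proteins A and D are collectins, secreted lectins that bind microbes. Alveolar type I cells are the thin cells over which gas exchange takes place, and club cells line the small airways. Whole lung was measured, so fewer cells of a type and less RNA per cell cannot be told apart in any value below.

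In each group, 2 of the 3 arrays were near-identical over all probe sets, although the labels call them biological replicates. Each such pair was averaged and counted as 1 sample, which leaves 8 samples, 2 per group: the averaged pair and the lone array. The pairs are replicates 1 and 3 in T/HS, T/HS-LDL and T/SS-LDL, and replicates 2 and 3 in T/SS. Values are intensities, the brightness of a probe set after the authors' normalization, on a linear scale. The array medians lay between 651 and 680, and the highest value on an array lay between 29933 and 32489.

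Of the 10 member probe sets, 5 lay at or near the top of the scale, where differences are cut off or compressed. The highest value of each array was shared by 8 to 34 probe sets, so it acts as a ceiling. Sftpc (X14221_at), the gene for surfactant protein C, was exactly at the ceiling on 12 of 12 arrays. Ager (L33413_at), which encodes the receptor for advanced glycation end products, was within 2% of the ceiling on 11 arrays and no lower than 96.6% of it on the other. The Sftpb probe set rc_AI170380_at was within 2% on 10 arrays and the Sftpb probe set rc_AI170380_g_at on 8. The Sftpa1 probe set M33201_at was within 2% on 8 arrays and at least 94.3% on the rest. In all, 5 of the 10 member probe sets came within 2% of the ceiling on at least 1 array, and the other 5 on none.

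**Figure D1:**
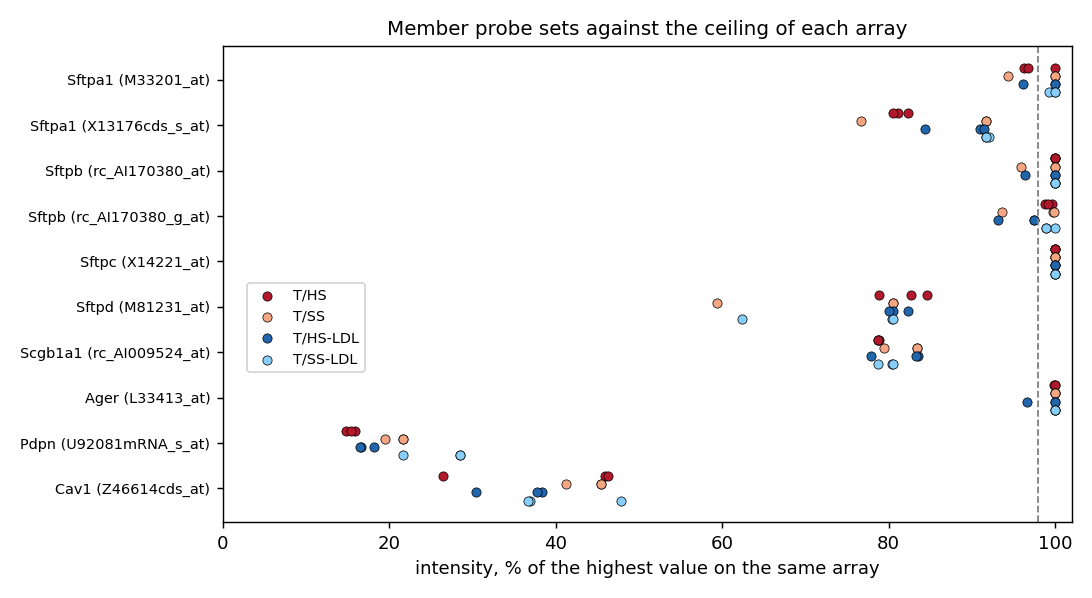
Intensity of the 10 member probe sets as a percentage of the highest value on the same array, with 1 point per array coloured by group and a dashed line at 2% below the highest value. Sftpc sits at 100% on all 12 arrays, while Pdpn lies between 14.8% and 28.5% and Cav1 between 26.4% and 47.9%.

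A value at the ceiling is a lower bound. Over the 12 arrays, Sftpc was at it on 12, the Sftpb probe set rc_AI170380_at on 10, Ager on 9, the Sftpa1 probe set M33201_at on 7 and the Sftpb probe set rc_AI170380_g_at on 1. The values below it are measured but lie close under it, and no fold change is given for these 5 probe sets. Sftpc read 31547 and 31398 in T/HS lungs, 30915 and 32443 in T/SS lungs, 30917 and 32489 in T/HS-LDL lungs, and 30651 and 29933 in T/SS-LDL lungs. These are the ceilings of the arrays themselves, so their order is that of the array maxima. Ager read 31547 and 31368 in T/HS lungs and 30915 and 32443 in T/SS lungs, and 3 of these 4 values equal those of Sftpc. The remaining ceiling probe sets, those of Sftpb and the brighter one of Sftpa1, lay between 29711 and 31547 over the 8 samples. The Sftpb probe set rc_AI170380_g_at, the one least often at the ceiling, read 31217 and 31262 in T/HS and 30853 and 30380 in T/SS, and 30114 and 30264 in T/HS-LDL and 30320 and 29933 in T/SS-LDL. Its T/HS samples were above its T/SS samples in intensity, and its T/HS-LDL and T/SS-LDL samples overlapped. As a share of the ceiling of the same array, T/SS replicates 2 and 3 (both 99.8%) were above the T/HS arrays (98.8% to 99.6%). T/SS replicate 1 (93.6%) was below them. Nothing is read from this order.

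The 5 probe sets below the ceiling were 1 each of Sftpa1, Sftpd, Scgb1a1, Pdpn and Cav1. Each gene was tested with limma, a linear model with a spread shared over probe sets, in 7 comparisons with p-values adjusted over all 8740 probe sets. In none of the 7 comparisons did any of the 10 member probe sets pass an adjusted p of 0.05, and the share of all probe sets that passed was 0% in each. Counts at an unadjusted p under 0.05 and statements that groups do not overlap are therefore descriptions. For shock over both duct states, 9.04% of all probe sets had an unadjusted p under 0.05, 2.15% had all 4 shocked samples below all 4 sham samples, and 2.49% had them above. Single genes with such a non-overlap are to be read against these shares.

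**Figure D2:**
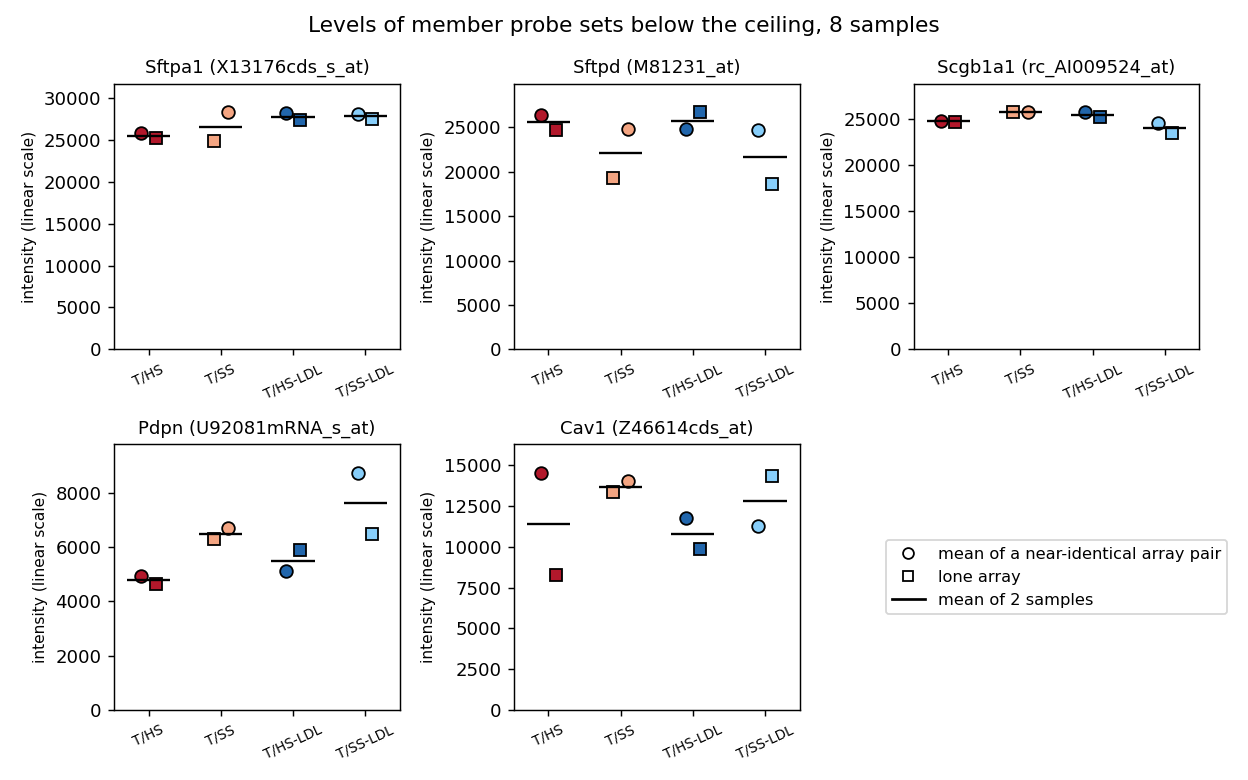
Intensity (linear scale, vertical axis) of the 5 member probe sets below the ceiling, with the 2 samples of each group as points, circles for averaged pairs and squares for lone arrays, and a line at their mean. The Pdpn points of T/HS and T/HS-LDL lie below those of T/SS and T/SS-LDL, and Cav1 is split within T/HS at 14538 and 8292.

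Pdpn (U92081mRNA_s_at) encodes podoplanin, a membrane glycoprotein of alveolar type I cells that lymphatic endothelium and mesothelium also carry. It read 4931 and 4655 in T/HS lungs, against 6692 and 6308 in T/SS lungs. It read 5123 and 5885 in T/HS-LDL lungs, against 8740 and 6485 in T/SS-LDL lungs. All 4 shocked samples were below all 4 sham samples, in both duct states. The means were 4793 ± 195 in T/HS, 6500 ± 272 in T/SS, 5504 ± 538 in T/HS-LDL and 7613 ± 1594 in T/SS-LDL (SD, n = 2 each).

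The T/HS level of Pdpn was 0.737 times the T/SS level, a log2 difference of -0.44 ± 0.16 (SE; limma, adjusted p = 0.506). The T/HS-LDL level was 0.729 times the T/SS-LDL level, a log2 difference of -0.46 ± 0.16 (SE; adjusted p = 0.998). With the duct open or tied off, the difference between shocked and sham lungs was thus close in size, and the interaction was 0.02 with a 95% interval of -0.51 to 0.54, which allows a sizeable difference either way. Over both duct states, shocked lungs were at 0.733 times the level of sham lungs, a log2 difference of -0.45 with a 95% interval of -0.71 to -0.18 (adjusted p = 0.338). By p-value this placed Pdpn at rank 135 of 8740 probe sets. With the 12 arrays taken as separate samples the same difference was -0.50 (adjusted p = 0.005), and the near-identical arrays then count as independent. With the duct ligated, the size rested on the spread within T/SS-LDL: the log2 difference was -0.24 without the averaged T/SS-LDL pair and -0.67 without T/SS-LDL replicate 2.

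In the order of the group means, T/HS was lowest, followed by T/HS-LDL, T/SS and T/SS-LDL. T/HS samples did not overlap those of T/HS-LDL, but the log2 difference of -0.20 between them did not pass the test (adjusted p = 0.826). T/SS-LDL exceeded T/SS by 0.21 on the log2 scale (adjusted p = 0.896), and there the samples overlapped, with 6485 in T/SS-LDL lying between the T/SS values. Ligation over both shock states gave a log2 difference of 0.20 (adjusted p = 0.627).

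**Figure D3:**
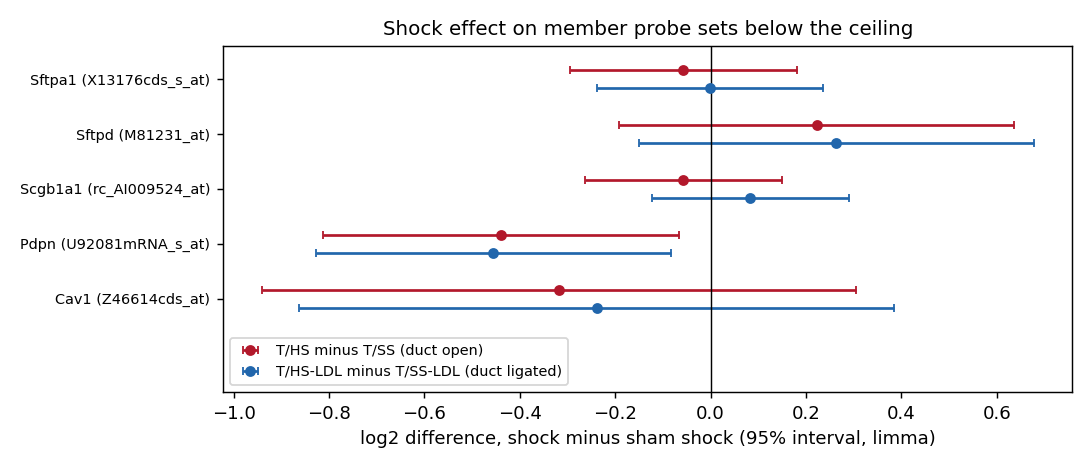
Log2 difference between shocked and sham lungs for the 5 member probe sets below the ceiling, with the duct open (T/HS minus T/SS) and ligated (T/HS-LDL minus T/SS-LDL); bars are 95% intervals from limma before adjustment for multiple tests. The Pdpn intervals lie below 0 in both duct states, and those of Sftpa1, Sftpd, Scgb1a1 and Cav1 span 0.

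Podoplanin is shared by other cell types, so their markers were read beside it. Of 10 other genes listed for lymphatic endothelium and mesothelium, 4 were measured, namely Lyve1, Reln, Mmrn1 and Wt1. For shock over both duct states, 0 of the 4 had an unadjusted p under 0.05 (9.04% of all probe sets). Their summed intensity was 7065 to 7362 in T/HS, 6187 to 7807 in T/SS, 5693 to 8405 in T/HS-LDL and 6692 to 7202 in T/SS-LDL. Lyve1, a hyaluronan receptor of lymphatic endothelium, differed by a log2 difference of 0.03 ± 0.21 (SE; adjusted p = 0.983). The sums overlapped between shocked and sham lungs in both duct states. The part of these cell types in the Pdpn difference was not tested.

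The other 8 measured markers of alveolar type I cells, of 17 listed, had a median log2 difference of -0.20 for shock over both duct states, against 0.01 for all probe sets. Of these 8, 6 were negative and 2 positive, 2 had an unadjusted p under 0.05 (9.04% of all probe sets), both negative, and 0 passed the adjusted test. Their summed intensity was 47946 to 50054 in T/HS and 49732 to 56391 in T/SS, which overlap. With the duct ligated it was 49839 to 50769 in T/HS-LDL against 52866 to 53214 in T/SS-LDL, which do not overlap. A large part of these sums is 1 bright gene, the sodium pump subunit gene Atp1b1. It alone read 23825 and 27385 in T/HS, against 25335 and 18426 in T/SS. In T/HS-LDL it read 27587 and 25029, against 27650 and 23943 in T/SS-LDL. The sums thus say little about the dimmer genes of the list. Akap5, which anchors protein kinase A, read 227 and 218 in T/HS, 274 and 259 in T/SS, 200 and 206 in T/HS-LDL, and 284 and 299 in T/SS-LDL. Akap5 is thus dim, below the array medians of 651 to 680 in every sample. All 4 of its shocked samples were below all 4 sham samples, with a log2 difference of -0.39 ± 0.07 (SE; adjusted p = 0.298).

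Aqp5, the water channel of the apical membrane of type I cells, read 5441 and 3824 in T/HS, against 8082 and 7835 in T/SS. With the duct ligated its samples overlapped, at 3295 and 7042 in T/HS-LDL and 4627 and 7065 in T/SS-LDL. Its log2 difference over both duct states was -0.52 ± 0.27 (SE; adjusted p = 0.641). Cyp4b1, a cytochrome P450 of the lung, had a log2 difference of -0.37 (adjusted p = 0.532), and Atp1b1, the beta subunit of the sodium pump, had one of 0.14 (adjusted p = 0.822).

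Markers of leukocytes and of connective tissue were read in the same samples. All 8 measured neutrophil genes had positive log2 differences for shock over both duct states, with a median of 0.91, and 6 had an unadjusted p under 0.05 (9.04% of all probe sets). Their summed intensity was 36439 to 72700 in T/HS and 20549 to 25984 in T/SS, and 57756 to 68975 in T/HS-LDL and 31538 to 42746 in T/SS-LDL. All 9 monocyte and macrophage genes were positive, with a median of 0.23 and sums of 47787 to 53538 in T/HS against 40102 to 41945 in T/SS, and of 48514 to 49916 in T/HS-LDL against 41669 to 43875 in T/SS-LDL. Of 16 fibroblast and smooth muscle genes, 13 were negative, with a median of -0.18, and 5 of these had an unadjusted p under 0.05 (9.04% of all probe sets). Their sums were 151807 to 152253 in T/HS against 160920 to 176863 in T/SS, and 148741 to 171645 in T/HS-LDL against 182068 to 183036 in T/SS-LDL. In these 3 lists 0 genes passed the adjusted test, and the part of these cell types in the Pdpn difference was not tested.

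Cav1 (Z46614cds_at) encodes caveolin 1, the coat protein of caveolae, which is found in both alveolar type I cells and endothelium. It read 14538 and 8292 in T/HS lungs, against 14031 and 13358 in T/SS lungs. It read 11751 and 9868 in T/HS-LDL lungs, against 11270 and 14333 in T/SS-LDL lungs. The T/HS samples enclosed both T/SS samples, and the lone T/HS array was the lowest of the 8 samples. The log2 difference of T/HS from T/SS was -0.32 ± 0.26 (SE; adjusted p = 0.754), and without the lone T/HS array it was 0.09. That of T/HS-LDL from T/SS-LDL was -0.24 ± 0.26 (SE; adjusted p = 0.998). Over both duct states the 95% interval was -0.72 to 0.16. The group means ran from T/HS-LDL through T/HS and T/SS-LDL to T/SS, and no neighbouring pair differed beyond the spread of its samples, since each pair of neighbours overlapped.

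Other genes of caveolae showed no shared direction. Of 8 measured, 5 were positive and 3 negative for shock over both duct states, with a median of 0.05, and 0 had an unadjusted p under 0.05. Cavin3, a protein of the caveolar coat, read 7260 and 3668 in T/HS against 5876 and 5941 in T/SS, and 5433 and 5197 in T/HS-LDL against 6826 and 6883 in T/SS-LDL. Its log2 difference was -0.28 ± 0.20 (SE; adjusted p = 0.762), and its lowest value was in the same lone T/HS array as that of Cav1. Of 10 endothelial genes, 4 were positive and 6 negative, with a median of -0.04. Their sums overlapped, at 43144 to 46307 in T/HS against 45070 to 46977 in T/SS. Kdr, the main receptor for vascular endothelial growth factor, had a log2 difference of -0.33 (adjusted p = 0.461). Selp, the adhesion molecule P-selectin, read 607 and 3957 in T/HS against 581 and 579 in T/SS, and 730 and 2730 in T/HS-LDL against 526 and 525 in T/SS-LDL. Its log2 difference of 1.42 ± 0.63 (SE; adjusted p = 0.585) thus rests mostly on the lone array of each shocked group.

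Sftpd (M81231_at) encodes surfactant protein D and stayed below the ceiling, at 59.4% to 84.6% of it. Whether its range is compressed there was not tested. It read 26376 and 24738 in T/HS lungs, against 24880 and 19256 in T/SS lungs. It read 24818 and 26728 in T/HS-LDL lungs, against 24659 and 18662 in T/SS-LDL lungs. A single low array in each sham group, T/SS replicate 1 and T/SS-LDL replicate 2, stood apart from the other 6 samples, which lay between 24659 and 26728. The log2 difference was 0.22 ± 0.17 between T/HS and T/SS (SE; adjusted p = 0.746) and 0.26 ± 0.17 between T/HS-LDL and T/SS-LDL (SE; adjusted p = 0.998). Without T/SS replicate 1 the first was 0.04, and without T/SS-LDL replicate 2 the second was 0.06. Without the averaged T/SS pair the first was 0.41, and without the averaged T/SS-LDL pair the second was 0.46. Over both duct states the difference was 0.24 with a 95% interval of -0.05 to 0.54 (adjusted p = 0.641). The group means ran from T/SS-LDL through T/SS and T/HS to T/HS-LDL, and T/SS-LDL overlapped T/SS, T/SS overlapped T/HS, and T/HS overlapped T/HS-LDL.

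The dimmer Sftpa1 probe set (X13176cds_s_at), for surfactant protein A, read 25784 and 25265 in T/HS lungs, against 28341 and 24870 in T/SS lungs. It read 28186 and 27423 in T/HS-LDL lungs, against 28097 and 27553 in T/SS-LDL lungs. T/HS was thus below T/HS-LDL in both samples, by 0.12 ± 0.10 on the log2 scale (SE; adjusted p = 0.831), and within the range of T/SS. The log2 difference was -0.06 between T/HS and T/SS (95% interval -0.29 to 0.18) and 0.00 between T/HS-LDL and T/SS-LDL (95% interval -0.24 to 0.24). The probe set reached 92.0% of the ceiling, and whether its range is compressed there was not tested. The order of group means was T/HS, T/SS, T/HS-LDL and T/SS-LDL, with each neighbouring pair overlapping.

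Scgb1a1 (rc_AI009524_at) encodes the secretoglobin of club cells. The probe set lay at 77.8% to 83.5% of the ceiling, and whether its range is compressed there was not tested. It read 24832 and 24744 in T/HS lungs, against 25801 and 25778 in T/SS lungs. It read 25784 and 25285 in T/HS-LDL lungs, against 24666 and 23548 in T/SS-LDL lungs. With the duct open the shocked samples were the lower ones, and with the duct ligated they were the higher ones. The second order did not hold as a share of the ceiling of the same array. T/HS-LDL replicate 2 was at 77.8% of it, below the T/SS-LDL arrays at 78.7% to 80.5%. The log2 difference was -0.06 (95% interval -0.26 to 0.15) between T/HS and T/SS and 0.08 (95% interval -0.12 to 0.29) between T/HS-LDL and T/SS-LDL. The interaction was -0.14 ± 0.12 (SE; adjusted p = 1.000), so the opposite signs were not shown to differ. The group means ran from T/SS-LDL through T/HS and T/HS-LDL to T/SS. None of these neighbouring pairs overlapped, except that T/HS-LDL reached 25784, which exceeds the lower T/SS value.

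The other club cell genes spread more widely than Scgb1a1. Of 11 measured of 21 listed, 9 were negative for shock over both duct states, with a median log2 difference of -0.23, and 4 of these had an unadjusted p under 0.05 (9.04% of all probe sets). Of the 4, Cyp2b2 reached the ceiling on some arrays. Their summed intensity was 62874 to 73346 in T/HS, against 82167 to 82878 in T/SS. Between T/HS-LDL and T/SS-LDL it was 69613 to 84418 and 84682 to 95696. Cbr1, a carbonyl reductase, read 913 and 927 in T/HS and 1185 and 1207 in T/SS, and 1003 and 1175 in T/HS-LDL and 1454 and 1554 in T/SS-LDL. All of its shocked samples were below all of its sham samples (log2 difference -0.42 ± 0.08, SE; adjusted p = 0.298). Aldh1a1, a retinaldehyde dehydrogenase, had the same non-overlap and a log2 difference of -0.42 (adjusted p = 0.432).

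Cyp2f4, a club cell cytochrome P450, read 4203 and 4032 in T/HS, against 4135 and 4083 in T/SS. It read 4466 and 3880 in T/HS-LDL, against 6261 and 5652 in T/SS-LDL. Its level in T/SS-LDL lungs was above that of every other sample. In T/SS-LDL against T/SS, 9 of the 11 club cell genes were positive, with a median of 0.27 against -0.02 for all probe sets, and 2 had an unadjusted p under 0.05 (4.23% of all probe sets). The 3 genes of ciliated cells on the array had a median of 0.01 for shock over both duct states, and their sums overlapped between shocked and sham lungs in both duct states.

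**Figure D4:**
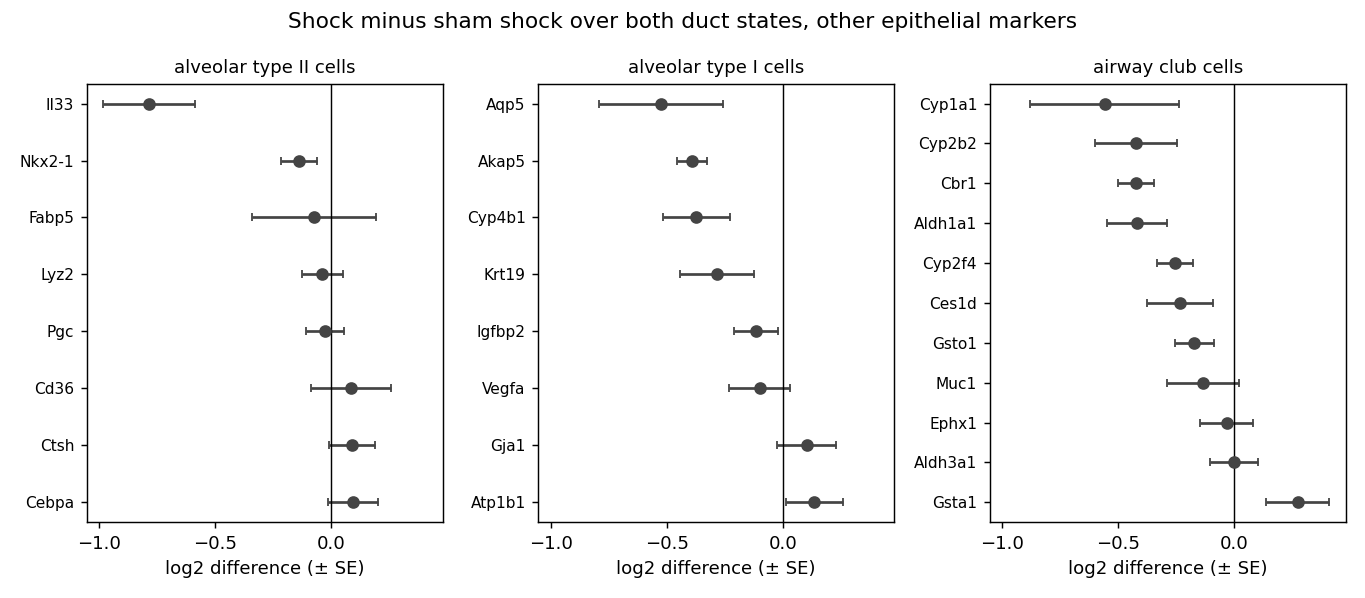
Log2 difference between shocked and sham lungs over both duct states for the other measured markers of alveolar type II cells (8 genes), alveolar type I cells (8 genes) and airway club cells (11 genes), with SE from limma. Il33, Aqp5, Akap5, Cyp4b1 and Cbr1 lie left of 0, and no gene passed the adjusted test.

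Alveolar type II cells were also followed by genes other than the surfactant proteins, of which Lyz2, a lysozyme gene, was itself at or near the ceiling in most samples. Of 8 measured of 16 listed, 3 were positive and 5 negative for shock over both duct states, with a median of -0.03, and 1 had an unadjusted p under 0.05 (9.04% of all probe sets). That gene was Il33, an alarmin cytokine of type II cells in rodent lung, which read 1349 and 946 in T/HS, against 1740 and 2856 in T/SS. It read 1557 and 1249 in T/HS-LDL, against 2345 and 1873 in T/SS-LDL. All 4 shocked samples lay below all 4 sham samples, with a log2 difference of -0.78 ± 0.20 (SE; adjusted p = 0.345). Ctsh, the protease cathepsin H that takes part in processing surfactant protein B, had a log2 difference of 0.09 (adjusted p = 0.873).

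The regulators of the surfactant genes numbered 25 measured of 28 listed, of which 2 had an unadjusted p under 0.05 with a positive difference and 2 with a negative one for shock over both duct states (9.04% of all probe sets in either direction). Nkx2-1, the transcription factor that drives the surfactant genes, read 6009 and 7027 in T/HS, against 7821 and 7624 in T/SS. It read 7425 and 6962 in T/HS-LDL and 7156 and 7542 in T/SS-LDL. Its log2 difference over both duct states was -0.14 ± 0.08 (SE; adjusted p = 0.688). Cebpd, a C/EBP family transcription factor of type II cells and of the acute phase response, read 8327 and 12184 in T/HS and 4217 and 5080 in T/SS, and 6914 and 8402 in T/HS-LDL and 6180 and 5094 in T/SS-LDL. All shocked samples exceeded all sham samples, with a log2 difference of 0.78 ± 0.15 (SE; adjusted p = 0.298). Its relative Cebpb had a log2 difference of 0.62 (adjusted p = 0.473). Klf9, a transcription factor induced by glucocorticoids, read 8966 and 9181 in T/HS and 15611 and 14905 in T/SS, both with the duct open. Its log2 difference over both duct states was -0.45 (adjusted p = 0.329). With the duct open, 10 of the 25 regulators had both shocked samples below both sham samples (20.9% of all probe sets) and 6 had them above (19.2%). With the duct ligated, 0 of the 25, Klf9 among them, had them below (12.4% of all) and 4 had them above (16.8%). These counts do not give the size of the Klf9 change with the duct ligated.

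Surfactant lipid synthesis was measured by 25 genes of 34 listed, of which 2 had an unadjusted p under 0.05 for shock over both duct states, both negative, a share near the 9.04% of all probe sets, and the median was -0.03. Elovl5, a fatty acid elongase, read 9379 and 7825 in T/HS and 11978 and 11763 in T/SS, both with the duct open. Its log2 difference over both duct states was -0.29 (adjusted p = 0.403). With the duct open, 7 of the 25 lipid genes had both shocked samples below both sham samples (20.9% of all probe sets) and 4 had them above (19.2%). With the duct ligated, 2 had them below (12.4% of all) and 3 above (16.8%). At an unadjusted p under 0.05, 3 were lower and 0 higher with the duct open (8.80% of all in either direction). With it ligated, 0 were lower and 1 was higher (3.79%). These counts do not give the change of Elovl5 alone. Pcyt1a, the regulatory enzyme of phosphatidylcholine synthesis, had a log2 difference over both duct states of 0.16 ± 0.07 (SE; adjusted p = 0.581). Prdx6, an enzyme that turns over surfactant phospholipid, had one of -0.02 (adjusted p = 0.967).

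Processing and secretion of surfactant was measured by 15 genes of 21 listed, of which 1 was positive and 2 were negative at an unadjusted p under 0.05 (9.04% of all probe sets in either direction). P2ry2, the ATP receptor that triggers surfactant secretion, read 1313 and 1761 in T/HS and 1018 and 973 in T/SS, and 1321 and 1542 in T/HS-LDL and 1066 and 810 in T/SS-LDL. All shocked samples were above all sham samples, with a log2 difference of 0.62 ± 0.13 (SE; adjusted p = 0.309). Prkcd, a protein kinase C, had a log2 difference of -0.24 (adjusted p = 0.463), and Rab3d, a GTPase of secretory granules, had one of -0.23 (adjusted p = 0.544).

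Ager itself was at the ceiling, but its ligands could be read. Of 10 measured ligand genes of 12 listed, 2 were positive and 2 negative at an unadjusted p under 0.05 for shock over both duct states (9.04% of all probe sets in either direction), and the median was 0.05. The positive genes were S100a8 and S100a9, which form calprotectin and are also on the neutrophil list. S100a9 read 11983 and 25752 in T/HS, 10308 and 5624 in T/SS, 27141 and 26251 in T/HS-LDL, and 14575 and 13332 in T/SS-LDL. Its log2 difference was 1.07 ± 0.28 (SE; adjusted p = 0.359), and that of S100a8 was 1.22 ± 0.25 (SE; adjusted p = 0.309). App, the amyloid precursor protein, had a log2 difference of -0.28 (adjusted p = 0.508).

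Counted over the 10 member probe sets, T/HS against T/SS gave 1 at an unadjusted p under 0.05, Pdpn, where 8.80% of all probe sets met this. In that comparison 2 members, Pdpn and Scgb1a1, had T/HS samples below all T/SS samples, a criterion met by 20.9% of all probe sets. Another 2, both of Sftpb, had them above (19.2% of all), but these lie at or near the ceiling, and both T/HS values of rc_AI170380_at are the array maxima, so nothing is read from their order.

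T/HS against T/HS-LDL compares shocked lungs with and without a ligated duct, and so with and without the lung injury the study describes. It gave 0 members at an unadjusted p under 0.05 (6.37% of all probe sets). The T/HS samples were lower without overlap for 3 members, Pdpn, Scgb1a1 and the dimmer Sftpa1 probe set (15.7% of all). They were higher for both of Sftpb (18.4% of all), which lie at or near the ceiling, so nothing is read from their order. For Scgb1a1 the order did not hold as a share of the ceiling of the same array. T/HS-LDL replicate 2 was at 77.8% of it, below the T/HS arrays at 78.7% to 78.8%.

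T/HS-LDL against T/SS-LDL compares shock with the duct ligated. It gave 1 member at an unadjusted p under 0.05, Pdpn (3.79% of all probe sets), which was also the 1 member lower without overlap (12.4% of all). The shocked samples were higher without overlap for 6 members (16.8% of all). Of these 6, 4 were at or near the ceiling, namely Ager, Sftpc, the brighter Sftpa1 and the Sftpb probe set rc_AI170380_at. The T/SS-LDL arrays had ceilings of 29933 to 30653, below those of T/HS-LDL arrays at 30894 to 32489. On T/HS-LDL replicate 2 only Sftpc was at the ceiling, with Ager at 96.6%, Sftpa1 at 96.1% and rc_AI170380_at at 96.4% of it. Nothing is read from the order of these 4. The other 2 were Sftpd and Scgb1a1, and their order did not hold as a share of the ceiling of the same array. Sftpd was at 80.1% on T/HS-LDL replicate 3, below T/SS-LDL replicates 1 (80.4%) and 3 (80.5%). Scgb1a1 was at 77.8% on T/HS-LDL replicate 2, below T/SS-LDL replicate 2 (78.7%). Nothing is read from the order of these 2 either.

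T/SS-LDL against T/SS, ligation alone, gave 0 members at an unadjusted p under 0.05 (4.23% of all probe sets) and 5 that were lower without overlap (24.5% of all). Of these, 4 were ceiling probe sets, and the other was Scgb1a1. As a share of the ceiling of the same array, Scgb1a1 was not lower throughout. T/SS-LDL replicates 1 (80.4%) and 3 (80.5%) were above T/SS replicate 1 (79.5%). The interaction of shock and ligation gave 0 members at an unadjusted p under 0.05 (2.99% of all). Shock over both duct states gave 1 at an unadjusted p under 0.05 (9.04% of all) and 1 lower without overlap (2.15% of all), in both cases Pdpn. Ligation over both shock states gave 0 at an unadjusted p under 0.05 (8.08% of all) and 1 lower without overlap (2.65% of all), the Sftpb probe set rc_AI170380_g_at, which is near the ceiling. T/HS, T/SS, T/HS-LDL and T/SS-LDL samples enter several of these comparisons each, so the comparisons share samples.

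The members below the ceiling did not follow a common pattern over the 8 samples. Their pairwise Pearson correlations of log2 values lay between -0.41 (Sftpd and Cav1) and 0.48 (Sftpa1 and Pdpn). All values come from the same arrays and normalization. Among 3629 other bright probe sets with a single symbol, the genes most like Pdpn were Lims1 (r = 0.97) and Rab5b (r = 0.97). Those most like Cav1 were Npr1 (r = 0.995) and Vipr1 (r = 0.97). Npr1, a receptor for natriuretic peptides, read 1145 and 701 in T/HS, 1124 and 1069 in T/SS, 962 and 782 in T/HS-LDL, and 932 and 1158 in T/SS-LDL, with its lowest value in the same lone T/HS array as Cav1. Those most like Sftpd were Dhrs7b (r = 0.94) and Yipf3 (r = 0.91), and those most like Scgb1a1 were Eef1a1 (r = 0.91) and Eef2k (r = 0.91). For the dimmer Sftpa1 probe set they were Slc25a5 (r = 0.895) and Fdps (r = 0.88). With so many candidates over 8 samples, high correlations are found for many genes, and these are descriptions of the likeness.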

How the data were processed

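Lung RNA was hybridised to 12 one-colour Affymetrix RG-U34A arrays. The deposited intensity values were made by the authors with RMA (no version given), per the submitters' processing notes, and are on a linear scale; log2 was taken here. RMA fits each probe set over all arrays together, so arrays were not normalized again. The 8799 probe sets include 59 controls, which were dropped; 7006 of the other 8740 have 1 gene symbol, 308 several and 1426 none. Arrays of a group with a robust SD of log2 differences under 0.1 were averaged, which gave 4 pairs and 8 samples. The spread between samples rests on 4 residual degrees of freedom, and the number of arrays limits the precision. limma 3.58.1 in R 4.3.3 (lmFit, eBayes, contrasts of group means, two-sided, Benjamini-Hochberg over 8740 probe sets, threshold 0.05) gave every test; the code was tested on simulated data. "Over both duct states" and "over both shock states" are the means of a pair of contrasts.

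The members and gene lists were chosen with earlier results of these data known. Each list gene is represented by 1 probe set. The text names all member probe sets. From most lists it names genes past adjusted p 0.05 (up to 4). Without any, up to 3 with the smallest p for shock over both duct states and up to 2 of the highest mean are named. The lists of monocytes and macrophages, fibroblasts and smooth muscle, and ciliated cells are described only as a whole. A list of erythrocyte genes is not described. For each member, the 2 most correlated genes with a mean log2 above the median of all are named. Same replicate numbers were checked for pairing: of 18 same-numbered pairs across groups, 3 had correlated deviations over 0.1 (range -0.17 to 0.19), so no pairing was used. Alternatives were 12 separate arrays, pairs as a random block, the replicate block, other scalings, pseudocounts and filters, and leaving out each sample.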

Additional observations from a re-analysis of the deposited data

Results flagged for a closer look

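Scgb1a1 had T/HS samples below both T/SS samples with the duct open, and T/HS-LDL samples above both T/SS-LDL samples with the duct ligated. The shock effects thus pointed in opposite directions, and their difference was -0.14 on the log2 scale (SE 0.12; limma, adjusted p = 1.000), which did not pass the test. As a share of the ceiling of the same array, the order with the duct ligated did not hold. T/HS-LDL replicate 2 was at 77.8%, below the T/SS-LDL arrays at 78.7% to 80.5%. With the duct open it held, at 78.7% to 78.8% in T/HS and 79.5% to 83.5% in T/SS.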

How the results depend on the processing

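With near-identical arrays averaged, 0 of 8740 probe sets passed in any of the 7 comparisons. With 12 separate arrays, the counts were 629 for shock with the duct open (T/HS minus T/SS), 372 for the duct open over ligated within shock (T/HS minus T/HS-LDL), 127 for shock with the duct ligated, 141 for ligation within sham shock, 1 for the interaction, 733 for shock over both duct states and 970 for ligation over both shock states. With the replicate number as a block on those 12 arrays, they were 456, 130, 47, 21, 1, 570 and 518 in the same order. With pairs as a random block, 25 passed for shock with the duct open and 58 in shock over both duct states. Leaving out 1 sample at a time gave, in the same order of comparisons, 0 to 139, 0 to 66, 0 to 2, 0 to 2, 0 to 27, 0 to 108 and 0 to 26. A group left with 1 sample is then assumed to vary like the others. Without the averaged T/HS pair, the counts were 139, 66 and 108 for shock with the duct open, the duct open over ligated within shock, and shock over both duct states, and without the lone T/HS array they were 5, 4 and 10. Among the members, Pdpn alone passed under any alternative. With 12 separate arrays this gave 1 member for shock with the duct open (adjusted p = 0.038), with it ligated (adjusted p = 0.038) and over both duct states (adjusted p = 0.005), and with the replicate block 1 in the last (adjusted p = 0.014). Near-identical arrays count there as independent samples, and the pairing by number was not borne out. The Pdpn log2 difference for shock over both duct states ranged from -0.56 to -0.34 over all alternatives. Of 1155 member differences recomputed, 81 changed sign against the fit with averaged pairs, 0 of them with a size over 0.1 on both sides. Differences near 0 in that fit could still swing widely between alternatives. That of Cav1 between T/HS and T/HS-LDL was 0.03 and ranged from -0.38 to 0.43. The Cav1 interaction ranged from -0.48 to 0.33, and the Pdpn interaction from -0.20 to 0.23. Probe sets within 5% or 10% of the ceiling numbered 5 and 6 among the members, against 5 within 2%. Leaving out probe sets near the ceiling removed the 5 members concerned and gave no value for them.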
